A study of Mus musculus with 9 samples.

Results

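Described here are 10 genes of the circadian clock, Per1, Per2, Per3, Cry1, Gm129, Dbp, Nr1d1, Nr1d2, Arntl and Npas2, taken by their symbol from a table of 31804 genes. All 10 were found, and all 10 were among the 16438 genes that passed the filter on low counts. They were selected on results of these same libraries, their counts in all 9 libraries and the group contrasts made from them, so their differences between groups are given as a description and not as tests. Gm129 is the older symbol of Ciart, also called Chrono.

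RNA was sequenced from dorsal hippocampus of male C57BL/6NCrl mice that had received an rAAV, a recombinant adeno-associated virus used as a gene carrier, at 8 weeks of age. Tissue was taken 3 weeks after injection. In 3 mice the virus carried Camta1 shRNA B, in 3 others Camta1 shRNA A, and in 3 a control shRNA without a target; an shRNA is a short hairpin RNA that lowers the mRNA it matches, and A and B are different sequences against Camta1. All groups carried virus, and infected tissue was cut out by its mCherry fluorescence, so the dissected pieces held whatever cells lay in the red area. The promoter that drove the hairpins, the time of day of the dissections and the light schedule are not given in the sources used here.

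The circadian clock is a feedback loop of transcription that runs in most cells of the body, the hippocampus included. Arntl (BMAL1) pairs with Clock or with its relative Npas2 and binds E-boxes in the Per, Cry, Dbp, Nr1d and Gm129 genes, whose products then act back on the loop: PER and CRY proteins repress BMAL1, and the nuclear receptors REV-ERB alpha and beta (Nr1d1 and Nr1d2) repress Arntl and Npas2 through ROR elements. Transcripts of the first kind and those of Arntl and Npas2 therefore peak at opposite times of day, and Cry1, which answers to both kinds of element, peaks later than the Per and Dbp transcripts in many tissues.

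The promoters show both kinds of element. They are from RefSeq on GRCm38.p6, a build other than the mm9 used for the counts, and 9 of the 10 genes matched an entry; Per2 did not. Letters in capitals are matches, on either strand, to the E-box CACGTG, to CACGTT (an E-box variant), or to the D-boxes TTATGTAA and TTACGTAA that Dbp and its relatives bind; in Arntl they are matches to TAGGTNA, the element that ROR and REV-ERB receptors bind. The first 4 lines are the 250 bases before the start, and the Arntl lines give each element with 10 bases on either side. These genes are shown because they represent the E-box, D-box and ROR element among the genes whose levels are given next.
Gm129 promoter, chr3:95882229-95882478, minus strand: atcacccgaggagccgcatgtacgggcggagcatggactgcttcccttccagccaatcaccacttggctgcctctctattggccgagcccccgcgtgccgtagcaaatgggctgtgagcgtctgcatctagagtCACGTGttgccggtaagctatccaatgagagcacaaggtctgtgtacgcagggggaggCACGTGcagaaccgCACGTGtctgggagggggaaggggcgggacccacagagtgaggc
Cry1 promoter, chr10:85185055-85185304, minus strand: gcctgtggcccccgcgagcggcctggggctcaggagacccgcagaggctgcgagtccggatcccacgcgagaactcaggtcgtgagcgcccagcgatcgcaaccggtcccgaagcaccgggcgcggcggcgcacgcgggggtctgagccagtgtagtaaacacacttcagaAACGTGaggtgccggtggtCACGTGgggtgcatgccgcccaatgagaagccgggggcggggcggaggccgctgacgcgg
Per1 promoter, upstream start, chr11:69098699-69098948, plus strand: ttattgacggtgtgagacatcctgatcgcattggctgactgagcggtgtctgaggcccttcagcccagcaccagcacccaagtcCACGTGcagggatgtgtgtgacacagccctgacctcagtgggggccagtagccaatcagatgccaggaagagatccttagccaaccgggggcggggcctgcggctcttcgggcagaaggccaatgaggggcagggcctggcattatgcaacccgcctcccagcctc
Per3 promoter, chr4:151044666-151044915, minus strand: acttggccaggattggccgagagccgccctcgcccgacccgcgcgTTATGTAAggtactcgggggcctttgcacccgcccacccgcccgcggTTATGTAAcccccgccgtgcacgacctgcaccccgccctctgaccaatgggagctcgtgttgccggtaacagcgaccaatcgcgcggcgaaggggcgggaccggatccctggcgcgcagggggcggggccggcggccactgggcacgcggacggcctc
Arntl, first element, chr7:113207495-113207521, plus strand: ggtcggaaagTAGGTTAgtggtgcgac
Arntl, second element, chr7:113207531-113207557, plus strand: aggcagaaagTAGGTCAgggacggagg

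In windows of 300 bases, 250 before and 50 after the start, CACGTG was present in 3 of the 9 matched genes, Gm129, Cry1 and Per1, and in 8.09% of all 27025 genes of the table. CACGTT was present in Cry1 and Nr1d1, and in 5.44% of all genes. A D-box was present in Per3 alone among the 9, and in 1.23% of all genes. TAGGTNA was present in Arntl alone among the 9, and in 9.51% of all genes. A cyclic AMP response element, TGACGTCA, and a glucocorticoid response element were in 0 of the 9 windows, against 2.03% and 0.481% of all genes. No matches in these windows shared bases. Dbp, Nr1d2 and Npas2 held none of these letters in their windows, which says nothing of sites elsewhere in those genes.

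Library totals ran between 29123744 and 38189288 counts, the highest in shRNA B replicate 1. Camta1, the target of both hairpins, had 239, 145 and 266 CPM in the shRNA B libraries and 230, 174 and 254 CPM in the shRNA A libraries, against 427, 455 and 442 CPM in the controls, where CPM is counts per 1000000 after scaling of the libraries. Both hairpins left it near the same level, 49.1% ± 14.3 of the control mean with shRNA B and 49.8% ± 9.36 with shRNA A (SD, n = 3 each). No control overlapped either group, while the edgeR adjusted p was 0.0776 with shRNA B and 0.388 with shRNA A, and 0.000358 over both in the authors' deposited table. Among all libraries, 3 stood apart. Control replicate 3 carried choroid plexus transcripts, with 1055 CPM over 8 markers, against 25.4 to 47.6 CPM in the other libraries, and shRNA A replicate 3 lay lowest on the second principal component of all genes, at -26.1 where the others lay between -14.7 and 15.7. The first component set shRNA B replicate 2 apart, at 30.6 where the others lay between -19.9 and 13.6. Neuron markers were present in every library, at 5885 to 7108 CPM over 8 genes. The edgeR p-values set a difference between groups against a spread between animals that was estimated from all 9 libraries in their 3 groups.

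With shRNA B, transcripts of the Per and Dbp kind stood above the controls and Arntl stood below them. Gm129, Cry1, Dbp, Per2, Per3 and Per1 were higher in all 3 shRNA B libraries than in all 3 controls, by 0.30 to 0.86 on the log2 scale, and Arntl was lower in all 3. With shRNA A, Per2 lay above all controls in every library. Arntl did so in replicates 1 and 2, and Dbp in replicates 2 and 3, in replicate 2 by a small margin. The others of these genes mostly lay among the controls, and 1 animal, replicate 3, held the high values of Dbp and Gm129. Nr1d1 and Nr1d2 were near the control level with either hairpin.

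Among the repressors, Cry1 set the shRNA B mice apart from all others. Cry1 (ENSMUSG00000020038, chromosome 10), a cryptochrome that inhibits BMAL1 and its partner, had 19.99, 17.95 and 18.8 CPM with shRNA B and 11.5, 11.8 and 12.96 CPM with shRNA A, against 13.5, 11.4 and 11.2 CPM in controls. The 3 shRNA B libraries were the 3 highest of the 9 with a clear gap, while the shRNA A libraries lay inside the range of the controls. The log2 fold change was 0.65 ± 0.092 (SE) for shRNA B minus control, 0.01 ± 0.094 for shRNA A minus control and 0.64 ± 0.092 for shRNA B minus shRNA A. The shRNA A value changed sign, to between -0.04 and -0.03, without control replicate 2, control replicate 3 or shRNA A replicate 3. In bulk tissue, more cells of a type and more RNA per cell cannot be told apart, here or for the genes that follow.

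Gm129 (ENSMUSG00000038550, chromosome 3), whose product CHRONO binds BMAL1 and represses it, is the gene with 3 E-boxes in the promoter shown. It had 14.6, 14.5 and 16.6 CPM with shRNA B and 7.57, 8.56 and 13.5 CPM with shRNA A, against 7.66, 7.77 and 9.67 CPM in controls. shRNA A replicate 3 was the 1 library outside the shRNA B group that came near its level. The log2 fold change was 0.86 ± 0.19 with shRNA B, the largest of the 10 genes, and 0.24 ± 0.19 with shRNA A. Without shRNA A replicate 3 the shRNA A value was -0.05.

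Per2 (ENSMUSG00000055866, chromosome 1), a PERIOD protein that carries CRY into the repressing complex, had 97.2, 102 and 89.1 CPM with shRNA B and 70.6, 79.3 and 77.9 CPM with shRNA A, against 65.1, 65.6 and 69.6 CPM in controls. The groups were stacked without overlap, shRNA B above shRNA A and shRNA A above control. Its log2 fold change was 0.53 ± 0.070 with shRNA B and 0.19 ± 0.070 with shRNA A. Per3 (ENSMUSG00000028957, chromosome 4), the PERIOD gene with a pair of D-boxes, had 72.7, 78.5 and 65.7 CPM with shRNA B and 46.1, 58.2 and 59.2 CPM with shRNA A, against 53.6, 45.3 and 59.0 CPM in controls. Here shRNA A and control overlapped and shRNA B lay above both, with log2 fold changes of 0.46 ± 0.12 for shRNA B and 0.05 ± 0.12 for shRNA A. Dropping control replicate 2 turned the shRNA A value of Per3 to -0.05, and dropping shRNA A replicate 3 turned it to -0.01.

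Per1 (ENSMUSG00000020893, chromosome 11), which is induced by light and by neuronal signalling as well as by the clock, had 167, 173 and 180 CPM with shRNA B and 152, 150 and 186 CPM with shRNA A, against 119, 156 and 146 CPM in controls. Its shRNA B libraries were above the controls by a small margin, and the highest value of all belonged to shRNA A replicate 3. The log2 fold changes were 0.30 ± 0.11 with shRNA B and 0.22 ± 0.11 with shRNA A, and without control replicate 1, the lowest library, they were 0.20 and 0.11.

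**Figure D1:**
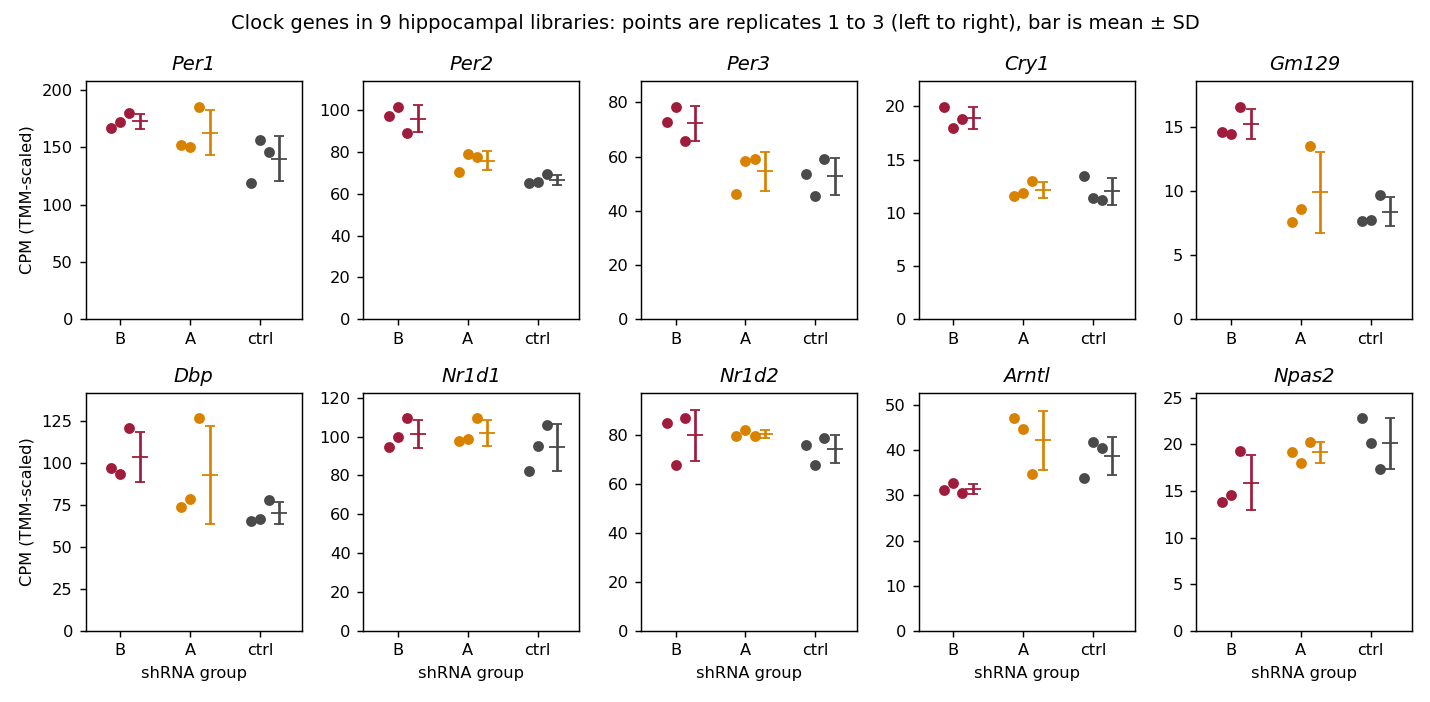
Levels of the 10 clock genes in CPM (scaled counts, linear axis from 0) in each library, with shRNA B, shRNA A and control from left to right. Points are replicates 1 to 3 and the bar beside them is the mean ± SD (n = 3). Cry1 with shRNA B lies between 17.95 and 19.99 CPM, above every other library, whereas the shRNA B libraries overlap the controls for Nr1d1 and Nr1d2.

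Dbp (ENSMUSG00000059824, chromosome 7), a transcription factor of the PAR bZIP family that binds D-boxes and carries the rhythm to output genes, had 97.2, 93.2 and 121 CPM with shRNA B and 73.7, 78.7 and 127 CPM with shRNA A, against 65.6, 66.8 and 77.7 CPM in controls. The highest Dbp of the 9 libraries was that of shRNA A replicate 3, and shRNA B replicate 3 came next. The log2 fold change was 0.57 ± 0.20 with shRNA B and 0.41 ± 0.20 with shRNA A, and the shRNA A value was 0.12 without its replicate 3. In a later annotation, 18.0% of the exon bases of Dbp overlap those of Sphk2 on the other strand, and the libraries keep no strand; Sphk2 itself was at 36.3 ± 1.67 CPM with shRNA B, 39.2 ± 1.87 CPM with shRNA A and 38.7 ± 4.06 CPM in controls (SD, n = 3 each).

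The REV-ERB genes did not share the pattern. Nr1d1 (ENSMUSG00000020889, chromosome 11) had 94.9, 99.99 and 109 CPM with shRNA B and 97.8, 98.5 and 109 CPM with shRNA A, against 82.1, 95.2 and 106 CPM in controls. Nr1d2 (ENSMUSG00000021775, chromosome 14) had 84.8, 67.8 and 86.9 CPM with shRNA B and 79.6, 82.1 and 79.5 CPM with shRNA A, against 76.0, 67.7 and 78.9 CPM in controls. For these repressors of Arntl the shRNA B libraries overlapped the controls, and the shRNA A libraries lay just above them for Nr1d2. Their log2 fold changes were 0.10 ± 0.093 and 0.11 ± 0.091 with shRNA B, and 0.11 ± 0.093 and 0.12 ± 0.091 with shRNA A. Of the exon bases of Nr1d1, 8.55% overlap those of Thra, the thyroid hormone receptor alpha gene, on the other strand, and Thra stood at 923 ± 77.6 CPM with shRNA B, 929 ± 55.3 CPM with shRNA A and 1020 ± 63.6 CPM in controls (SD, n = 3 each).

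The activators lay the other way with shRNA B. Arntl (ENSMUSG00000055116, chromosome 7), the gene whose ROR elements are shown, had 31.2, 32.7 and 30.4 CPM with shRNA B and 47.1, 44.7 and 34.8 CPM with shRNA A, against 33.9, 41.9 and 40.5 CPM in controls. Its 3 lowest libraries were those with shRNA B, and its 2 highest were shRNA A replicates 1 and 2. The log2 fold change was -0.30 ± 0.11 for shRNA B minus control, 0.12 ± 0.11 for shRNA A minus control and -0.43 ± 0.11 for shRNA B minus shRNA A. Npas2 (ENSMUSG00000026077, chromosome 1), a partner of BMAL1 that can stand in for CLOCK in forebrain, had 13.9, 14.5 and 19.2 CPM with shRNA B and 19.2, 18.0 and 20.2 CPM with shRNA A, against 22.8, 20.1 and 17.4 CPM in controls. It was low in shRNA B replicates 1 and 2, whereas replicate 3 lay inside the control range. Its log2 fold change was -0.34 ± 0.13 with shRNA B and -0.07 ± 0.13 with shRNA A, and the shRNA A value was 0.03 without control replicate 1.

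Over the 10 genes, 6 were higher and 1 was lower without overlap in shRNA B against control, where 9.27% and 8.88% of all genes tested were, 18.1% in all. In shRNA A against control, Per2 and Nr1d2 were higher without overlap and 0 were lower, where 6.84% and 5.65% of all genes were, 12.5% in all. In shRNA B against shRNA A, Per2, Per3, Cry1 and Gm129 were higher and Arntl was lower, where 7.29% and 6.95% of all genes were, 14.2% in all. The log2 fold change was positive for 8 of the 10 genes with shRNA B (50.3% of all genes), for 9 with shRNA A (50.1% of all genes) and for 6 in shRNA B minus shRNA A (50.5% of all genes). The median log2 fold change of the 10 genes was 0.38 for shRNA B and 0.12 for shRNA A against control, while the median of all genes was 0.0013 and 0.00023. With edgeR's test over all genes, Cry1 and Per2 were among the 167 called with shRNA B (1.02%) and none of the 10 was among the 4 called with shRNA A (0.0243%). DESeq2 called Per3 and Gm129 as well with shRNA B, among 386 genes, and limma-voom Per2 and Cry1 among 95. In shRNA B minus shRNA A edgeR called 0 genes of the whole table (0%), with 1536 (9.34%) at an unadjusted p under 0.05, while limma-voom called 0 (1578 at an unadjusted p under 0.05) and DESeq2 123, Per2 and Cry1 among them. Since the 10 genes were picked with these contrasts known, nothing is read from their share of calls. In the authors' deposited table, where 2.51% of genes with an adjusted p pass 0.05, Cry1, Per2, Gm129 and Per3 do.

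**Figure D2:**
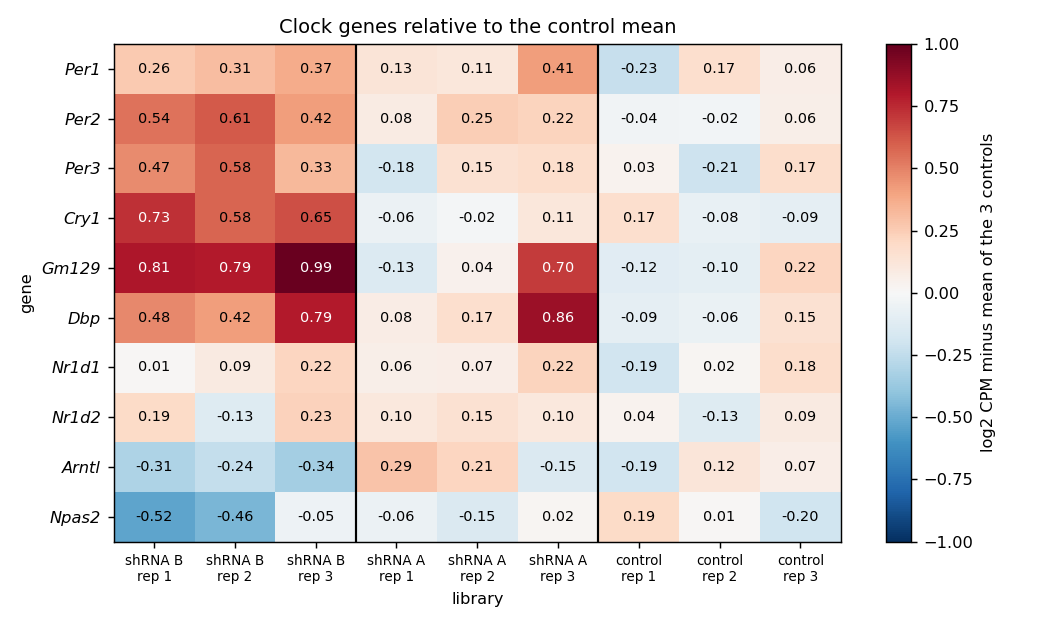
Each cell is the log2 CPM of a gene (row) in a library (column) minus the mean of the 3 controls, with libraries of shRNA B, shRNA A and control from left to right and the colour scale running between -1 and 1. Cry1 is 0.58 to 0.73 in the shRNA B libraries and -0.06 to 0.11 in the shRNA A libraries, while Dbp and Gm129 are raised in shRNA A replicate 3 too.

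The opposite phases were then set against each other within each library. The Per/Dbp arm was the mean log2 CPM of Per1, Per2, Per3, Dbp, Nr1d1, Nr1d2 and Gm129, the other arm the mean of Arntl and Npas2, and their difference is independent of how the libraries were scaled except through the small prior count. The difference was 1.85, 1.77 and 1.71 with shRNA B and 0.94, 1.14 and 1.49 with shRNA A, against 0.95, 0.93 and 1.24 in controls. All 3 shRNA B libraries lay above the other 6, shRNA A replicate 3 came next, and shRNA A replicates 1 and 2 fell among the controls. The mean was 1.78 ± 0.069 with shRNA B, 1.19 ± 0.28 with shRNA A and 1.04 ± 0.17 in controls (SD, n = 3 each). The shRNA B mean thus stood 0.74 above control and 0.59 above shRNA A, and the shRNA A mean 0.15 above control, which is less than the spread of either group. With Cry1 counted beside Arntl and Npas2, shRNA B stood 0.41 above control and 0.26 above shRNA A. In the arm difference as first defined, without Cry1, leaving out shRNA B replicate 2 put the shRNA B mean 0.743 above control.

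Both arms contributed to the shRNA B value. Relative to the control mean, the Per/Dbp arm was 0.40, 0.38 and 0.48 higher in the 3 shRNA B libraries, and the Arntl and Npas2 arm stood at -0.42, -0.35 and -0.20. In shRNA A replicate 3 the Per/Dbp arm was 0.38 above the control mean, close to the shRNA B libraries, but the Arntl and Npas2 arm was at -0.07, and Cry1 was at 0.11 against 0.58 to 0.73 with shRNA B. That library therefore resembled the shRNA B group in Dbp, Gm129 and Per1 but not in Cry1. Without it, shRNA A minus control in the arm difference was 0.003.

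**Figure D3:**
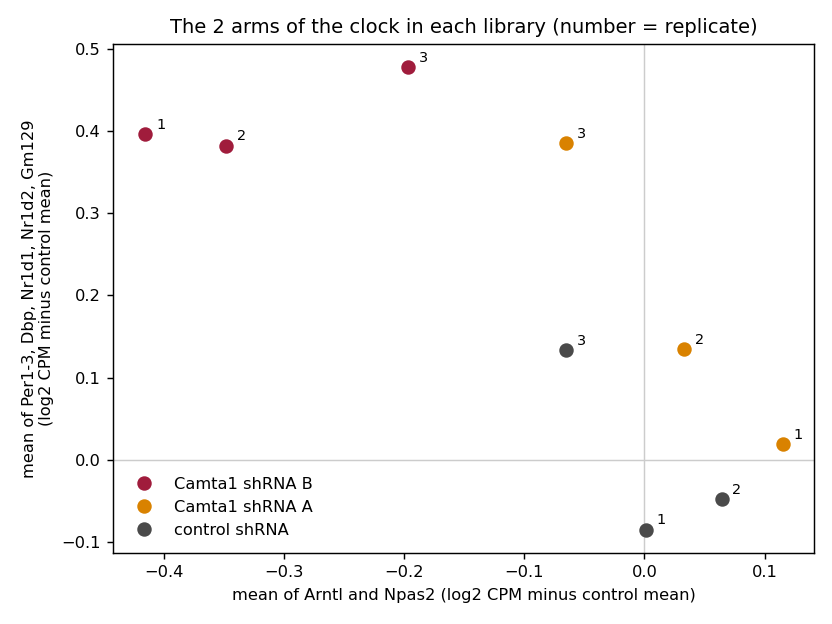
Each point is a library, coloured by group and numbered by replicate. The horizontal axis is the mean log2 CPM of Arntl and Npas2 and the vertical axis that of the 7 genes of the Per/Dbp arm, both minus the control mean. The shRNA B libraries lie at the upper left, at 0.38 to 0.48 on the vertical axis and -0.42 to -0.20 on the horizontal axis, while shRNA A replicate 3 is as high but not as far left.

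Ratios of raw counts need no scaling between libraries. Per2 over Arntl was 3.12, 3.12 and 2.93 with shRNA B and 1.50, 1.77 and 2.24 with shRNA A, against 1.92, 1.56 and 1.72 in controls. Cry1 over Arntl was 0.64, 0.55 and 0.62 with shRNA B and 0.24, 0.26 and 0.37 with shRNA A, against 0.40, 0.27 and 0.28 in controls. In both ratios the shRNA B libraries stayed clear of all others and shRNA A overlapped the controls. Dbp over Arntl did not separate the hairpins, at 3.12, 2.85 and 3.97 with shRNA B and 1.56, 1.76 and 3.64 with shRNA A, against 1.94, 1.59 and 1.92 in controls. Per2 over Npas2 was 7.02, 7.01 and 4.63 with shRNA B and 3.69, 4.40 and 3.86 with shRNA A, against 2.86, 3.27 and 4.002 in controls, so shRNA B replicate 3 lay close to the other groups. The genes of the Per/Dbp arm were not raised evenly: Nr1d1 over Per2 was 0.98, 0.98 and 1.23 with shRNA B, 1.38, 1.24 and 1.405 with shRNA A and 1.26, 1.45 and 1.53 in controls.

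Members also differed in which animals were high within a group. Once group means were subtracted, Dbp and Gm129 followed each other over the 9 libraries with a Pearson r of 0.97, and Per2 followed Per3 with r = 0.85, but Dbp and Per2 had an r of 0.08. Cry1 and Arntl moved oppositely, at -0.85. Arntl and Npas2, which make up the other arm, did not move together, with an r of -0.49. Before group means were subtracted their r was 0.27. These correlations are descriptions over 9 libraries that share the groups and the scaling. In shRNA B replicate 3, for example, Dbp and Gm129 were at the highest level of that group while Per2 and Per3 were at its lowest. Replicate 3 was the highest library for Dbp and Gm129 among the shRNA A libraries and among the controls too. This shared order is part of their r of 0.97.

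Each mouse with a hairpin against Camta1 was also set against the range of the 3 controls. In shRNA B replicates 1, 2 and 3, 7, 6 and 8 of the 10 genes were above that range and 2, 2 and 1 below it, where 26.8% to 29.7% of all genes were above and 25.0% to 28.8% below. In shRNA A replicates 1, 2 and 3, 3, 4 and 7 were above and 1, 0 and 0 below, where 24.4% to 30.7% of all genes were above and 22.8% to 28.8% below. Per2 and Nr1d2 were above the controls in every shRNA A library, and Arntl was above them in shRNA A replicates 1 and 2. Without control replicate 3, the library with choroid plexus RNA, the numbers above were 7, 7 and 8 with shRNA B and 5, 7 and 7 with shRNA A, where 34.0% to 36.3% and 32.0% to 37.2% of all genes were. The numbers below were then 2, 2 and 2 with shRNA B and 2, 1 and 0 with shRNA A, where 32.6% to 35.7% and 30.6% to 35.0% of all genes were.

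The rest of the clock machinery was examined with a list of 21 genes that are not among the 10, all of which passed the low-count filter. None was called by edgeR with shRNA B or with shRNA A, nor by DESeq2 or limma-voom, where edgeR called 1.02% and 0.0243% of all genes; at an unadjusted p under 0.05 there were 4 with shRNA B, where 12.8% of all genes were, and 2 with shRNA A, where 6.9% were. With shRNA B, 10 of the 21 lay above control and 11 below it, and their median log2 fold change was -0.006. With shRNA A the split was 10 and 11 again, around a median of -0.02. The 10 genes were chosen with these results known, and these 21 are what remained. The split does not follow visible differences throughout, since Nr1d1 and Nr1d2 are among the 10. Of the 21, 2 were higher and 0 lower without overlap with shRNA B, where 9.27% and 8.88% of all genes were.

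Of the other repressors, Bhlhe41 (DEC2), an E-box repressor, lay closest to the Per/Dbp arm. It had 41.4, 42.1 and 44.6 CPM with shRNA B and 36.2, 37.6 and 48.1 CPM with shRNA A, against 29.4, 33.4 and 37.1 CPM in controls. As for Dbp, shRNA A replicate 3 was the highest library. Against control, Bhlhe41 had a log2 fold change of 0.36 ± 0.11 with shRNA B (edgeR adjusted p = 0.19) and 0.29 ± 0.11 with shRNA A (edgeR adjusted p = 0.702). Its relative Bhlhe40 (DEC1) was at 147 ± 15.9 CPM with shRNA B, 166 ± 11.5 CPM with shRNA A and 140 ± 3.62 CPM in controls (SD, n = 3 each; edgeR adjusted p = 0.779 and 0.624 for the hairpins against control). Cry2, the second cryptochrome, had a log2 fold change of 0.12 ± 0.069 with shRNA B, unlike the 0.65 of Cry1, and Nfil3, a repressor of D-box genes, one of -0.23 ± 0.20 (edgeR adjusted p = 0.506 and 0.689).

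Among activators, Clock itself was at 93.7 ± 4.69 CPM with shRNA B, 96.3 ± 10.4 CPM with shRNA A and 101 ± 3.77 CPM in controls (SD, n = 3 each). Rora and Rorb, receptors that bind the same elements as REV-ERB and activate through them, lay slightly below control. Rora had log2 fold changes of -0.25 ± 0.10 with shRNA B and -0.11 ± 0.10 with shRNA A, and Rorb had -0.18 ± 0.088 and -0.07 ± 0.088. Neither passed edgeR's test, with adjusted p of 0.313 and 0.43 with shRNA B.

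The other PAR bZIP factors did not share the values of Dbp. Tef had a log2 fold change of 0.11 ± 0.072 with shRNA B and -0.03 ± 0.072 with shRNA A, and Hlf had -0.09 ± 0.12 and 0.11 ± 0.12. Of the 10 genes for kinases, ubiquitin ligases and other regulators of clock proteins, 4 had a positive value with shRNA B, with a median of -0.02. Fbxl21, an F-box gene that acts on cryptochromes, had the value farthest from 0, -0.38 ± 0.16 with shRNA B and -0.33 ± 0.16 with shRNA A (edgeR adjusted p = 0.347 and 0.741). Csnk1d and Csnk1e, the casein kinases that phosphorylate PER, had -0.08 ± 0.057 and 0.02 ± 0.077 with shRNA B.

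**Figure D4:**
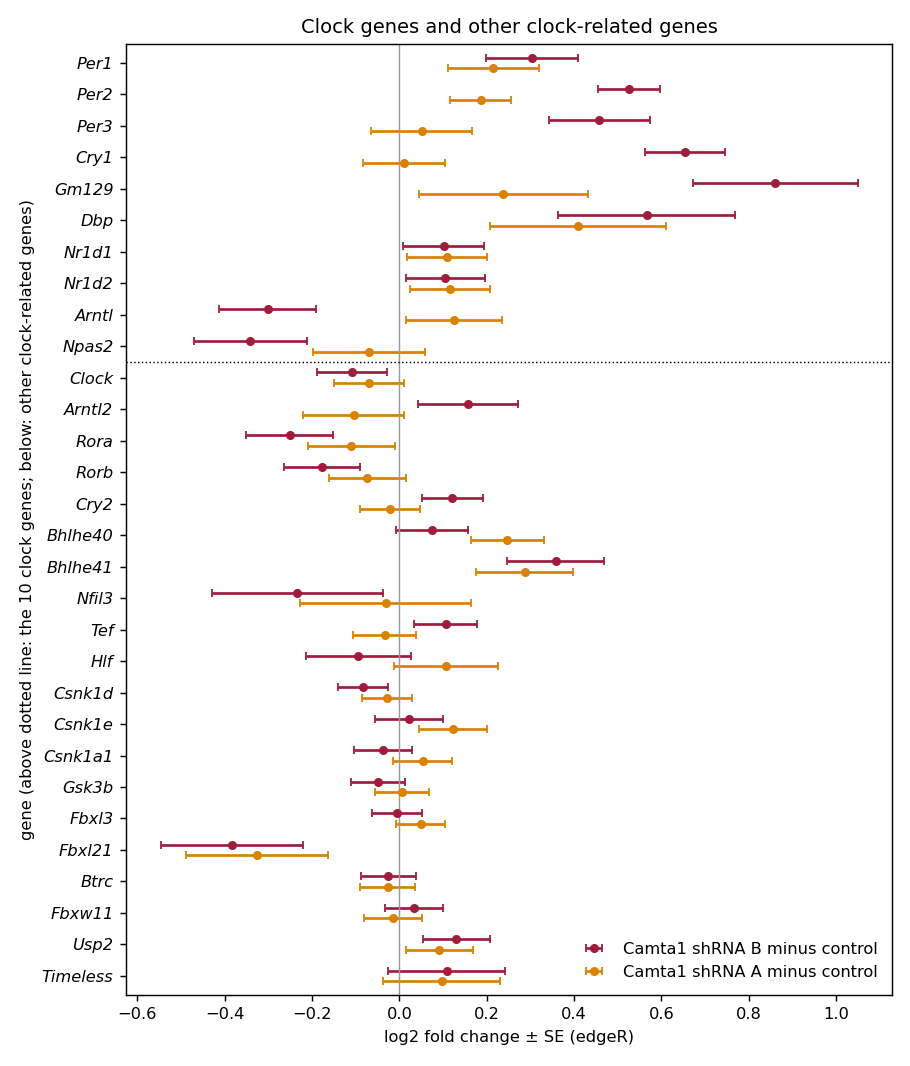
Log2 fold change against control with its SE (edgeR) for shRNA B and shRNA A, for the 10 clock genes above the dotted line and other clock-related genes below it. Values of shRNA B reach 0.86 for Gm129 and -0.34 for Npas2, whereas most of the other genes lie within 0.2 of 0.

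Genes most like the Per/Dbp arm were looked for among 14510 genes that averaged 1 CPM or more, by the Pearson r of log2 CPM with the arm over the 9 libraries, which share groups and scaling. The 10 highest included Slc12a4, Pipox, Pyroxd2, Dnm2, Ruvbl2, Trmt1, Rrp36, Ccdc86 and Phactr4, with r between 0.93 and 0.97, and Bhlhe41 came 11th with r = 0.92. Slc12a4, a potassium-chloride cotransporter, had 37.4, 39.8 and 38.2 CPM with shRNA B and 31.6, 33.2 and 38.8 CPM with shRNA A, against 29.9, 31.5 and 33.1 CPM in controls. Its libraries kept the order of Dbp in part, with shRNA A replicate 3 among the shRNA B libraries. The 10 lowest, from Fam115a at -0.98, included Slc30a1, Ipmk, Trim44, Zfr, Osbpl8, Ogfod1, Utp14b and Scn2a1. In all, 33 genes reached 0.9 and 41 reached -0.9. After removal of group means, r was 0.90 for Slc12a4, 0.96 for Bhlhe41 and -0.95 for Fam115a.

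Genes that answer to body temperature, to glucocorticoid or to neuronal firing are known to touch the Per genes, and were read in the same libraries. The 8 temperature-dependent genes measured, such as the cold-inducible Cirbp and Rbm3 and the chaperone Hsp90aa1, summed to 952 to 1204 CPM with shRNA B, 911 to 1056 CPM with shRNA A and 951 to 1094 CPM in controls. The 12 glucocorticoid-induced genes summed to 1178 to 1316 CPM with shRNA B, 1105 to 1269 CPM with shRNA A and 1088 to 1199 CPM in controls, and the 12 activity-regulated genes to 759 to 840, 876 to 1016 and 617 to 1040 CPM. The groups overlapped in all 3 lists except activity, where shRNA B lay below shRNA A. Of these genes edgeR, DESeq2 and limma-voom called 0 in any of the 3 comparisons. Of all genes, edgeR called 1.02% with shRNA B, 0.0243% with shRNA A and 0% in shRNA B minus shRNA A. DESeq2 called 386, 43 and 123 genes and limma-voom 95, 0 and 0, so 0 calls in lists this short say little. At an unadjusted p under 0.05 edgeR had 0, 3 and 0 of them with shRNA B 0, 2 and 1 with shRNA A, and 0, 1 and 3 in shRNA B minus shRNA A, in the order temperature, glucocorticoid and activity, where 12.8%, 6.9% and 9.34% of all genes were. Of the activity genes, 11 of 12 had a negative log2 fold change in shRNA B minus shRNA A. Against control, 8 of the 12 were negative with shRNA B and 2 with shRNA A. Of the 12 glucocorticoid-induced genes, 9 were positive in each comparison, with a median of 0.12 for either hairpin against control. Of the 8 temperature-dependent genes, 6 were positive with shRNA B and 4 with shRNA A. Of all genes, 50.3% were positive with shRNA B and 50.1% with shRNA A.

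Markers of other cells moved with shRNA B as well, and some of them with shRNA A. The 8 microglia markers summed to 478 to 543 CPM with shRNA B and 416 to 475 CPM with shRNA A, against 390 to 417 CPM in controls, and 3 of the 8, C1qa, C1qb and Ctss, rose with shRNA B by 0.66, 0.62 and 0.62 on the log2 scale (edgeR adjusted p = 0.0109, 0.0187 and 0.022). Of all genes, edgeR called 1.02% with shRNA B. Without overlap, 6 of the 8 were higher with shRNA B and 2 with shRNA A, where 9.27% and 6.84% of all genes were. The 8 meningeal markers summed to 55.5 to 61.3 CPM with shRNA B and 53.2 to 67.0 CPM with shRNA A, against 66.8 to 122 CPM in controls, and 1 of them, Slc6a13, fell with shRNA B by 0.98 on the log2 scale (edgeR adjusted p = 0.0376). Without overlap, 4 of the 8 were lower with each hairpin, where 8.88% (shRNA B) and 5.65% (shRNA A) of all genes were. All 8 had a negative log2 fold change with either hairpin, with medians of -0.68 for shRNA B and -0.60 for shRNA A. Single controls were high for some, such as Dcn at 21.3 CPM in control replicate 1 and Igf2 at 85.9 CPM in control replicate 3. Astrocyte markers were mixed with shRNA B, 2 of 8 above control and 6 below it. Aldh1l1 rose by 0.47 on the log2 scale (edgeR adjusted p = 0.0137), while Gfap at 0.64 (edgeR adjusted p = 0.0608) and Gja1 at -0.48 (edgeR adjusted p = 0.0614) were called by DESeq2 alone and Slc1a2 stood at -0.28 (edgeR adjusted p = 0.282). The 4 did not overlap the controls, as was so for 18.1% of all genes with shRNA B. The astrocyte list summed to 3659 to 3958 CPM with shRNA B, 3718 to 4168 CPM with shRNA A and 3689 to 4050 CPM in controls. Neuron markers summed to 5885 to 6354 CPM with shRNA B, 6069 to 6454 CPM with shRNA A and 6248 to 7108 CPM in controls. All 8 had a negative log2 fold change with either hairpin, with medians of -0.10 for shRNA B and -0.06 for shRNA A. Oligodendrocyte markers at 3386 to 6914, 4209 to 6587 and 2986 to 4888 CPM, and endothelial markers at 241 to 250, 246 to 247 and 233 to 259 CPM, overlapped between all groups in the same order. Of the 8 oligodendrocyte markers, 7 had a positive log2 fold change with shRNA B and 8 with shRNA A. Their medians were 0.31 and 0.43, and the lowest edgeR adjusted p was 0.625 and 0.794. Of the 8 endothelial markers, 2 and 4 were positive. No marker was at 0 in all libraries. The part of these cell markers in the clock gene levels was not tested.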

How the data were processed

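The authors deposited raw counts of reads for each Ensembl gene, so named in the file headers, from polyA-selected libraries without strand. HTSeq 0.6.1, TopHat 1.4.1 and SAMtools 0.1.19, with DESeq2 1.4.5 under R 3.1.1 and the build mm9, are listed in the submitters' processing notes. The settings and annotation are not given in the sources used here. Per the file headers, the authors' table also holds a mean normalized signal, log2 fold changes with standard errors, a likelihood ratio test score, and p-values with adjusted p-values; of these, only the adjusted p-value is cited.

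Counts of all 9 libraries were fitted with edgeR 4.0.16 in R 4.3.3 (filterByExpr, TMM, robust quasi-likelihood test, Benjamini-Hochberg threshold 0.05, two-sided), checked on simulated counts. The standard error (SE) is the size of the log2 fold change over the square root of F. CPM uses TMM-scaled library sizes; log2 CPM uses a prior count of 2. One read stood for 0.0259 to 0.0339 CPM. No replicate pair of a group matched within counting noise (chi-square per degree of freedom 8.32 to 22.1). DESeq2 1.42.0 and limma 3.58.1 were alternatives. Exon overlaps come from GENCODE M21. Hspa1a and Hspa1b matched no row by symbol. Of the columns with values per sample, 0 were unmatched to a label. The 10 genes and the lists were chosen with earlier results of these data known. Named are the 10 genes, Camta1, listed genes, and the 10 genes at either end of the correlation with the Per/Dbp arm; Sphk2 and Thra were added for their overlap. A few genes that the rule names are not reported here. That 3 animals made up each group rests on the series' design text.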

Additional observations from a re-analysis of the deposited data

How the results depend on the processing

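The 10 clock genes kept the sign of their log2 fold change with shRNA B against control in all 17 alternatives. Several of these hardly move that value by design, such as leaving out an shRNA A library, so a kept sign says little. Cry1 was past the adjusted p threshold in 15 of them, not without control replicate 2 or control replicate 3, and Per2 in 16, not without control replicate 1; Gm129 was past it in 5, Dbp in 2 and Per3 in 1. The 21 other clock-related genes were past the threshold in 0 of 17 in each comparison. The 10 genes were picked with these contrasts known and the 21 are what remained. Nothing is therefore read from the kept signs or from how often either list passed the threshold. With Cry1 placed beside Arntl and Npas2, the arm difference was 0.414 for shRNA B minus control and 0.257 for shRNA B minus shRNA A. Leaving out 1 library gave 0.682 to 0.838 for shRNA B minus control, 0.463 to 0.736 for shRNA B minus shRNA A and 0.003 to 0.276 for shRNA A minus control, the lowest without shRNA A replicate 3. Leaving out 1 gene of either arm gave 0.664 to 0.792, 0.516 to 0.653 and 0.061 to 0.243 in these comparisons, the lowest for shRNA B in both contrasts without Gm129.

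Counts of called genes over the whole table moved more. For shRNA A minus control, 4 with the settings reported, they were 9 without a low-count filter, 2 without robust estimation, 18 in a fit of these groups alone, 43 with DESeq2 and 0 with limma-voom (1111 at an unadjusted p under 0.05). For shRNA B minus control, 167, they were 42 in a fit of these groups alone, 386 with DESeq2 and 95 with limma-voom. The contrast of shRNA B with shRNA A had 0 with the settings reported, 21 without a low-count filter and 123 with DESeq2. Leaving out 1 library gave 0 to 10, 13 to 210 and 0 to 110 genes in these comparisons. The count was 0 for shRNA A without control replicate 1 or any shRNA A replicate, 1 without control replicate 2, 8 without control replicate 3 and 10 without shRNA B replicate 2. With shRNA B, dropping control replicate 1, 2 or 3 left 13, 23 or 19 genes, dropping replicate 1 or 2 of shRNA A left 103 or 99, and dropping replicate 2 of shRNA B left 63. The contrast of the hairpins had 38, 1 and 110 without shRNA B replicates 1, 2 and 3. Calls with shRNA B were 128 higher and 39 lower in edgeR, and 224 higher and 162 lower in DESeq2; with shRNA A they were 4 and 0 in edgeR, and 19 and 24 in DESeq2. The cause of these shifts was not tested. Same-numbered libraries mostly did not deviate together (r of -0.13 to 0.27, above 0.1 in 2 of 9 pairs). Both of those pairs were between shRNA A and shRNA B, the highest being that of replicate 3. Replicate 3 was also the highest library of every group for Dbp, Gm129, Nr1d1 and Bhlhe41. Whether same-numbered animals shared a condition was not tested. With the replicate number as a block the counts were 5, 148 and 1. The clock genes had 226 to 6452 counts in a library, and for the lowest of them, Gm129, Cry1 and Npas2, counting error is part of the spread.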
